A study of Homo sapiens with 2 samples.

Results

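The genes described here encode the heat shock proteins, their J-domain and BAG co-chaperones and the heat shock transcription factors. They were chosen by symbol as the probe sets whose platform annotation names exactly 1 gene with a symbol that starts with HSPA, HSPB, BAG, HSF, DNAJA, DNAJB or DNAJC and a number, with HSP90, or with HSPH1, HSPD1 or HSPE1. This gave 193 of the 54675 probe sets, with 82 symbols. Of these, 76 are family genes, with 186 probe sets, and 6 match by name only, being 5 antisense or divergent transcripts and HSF2BP. Genes that share their probe sets with another name in the annotation were not analysed here, among them the main stress-induced HSP70 genes HSPA1A and HSPA1B and the constitutive HSPA8. The cells were FaDu, an established cell line derived from a pharyngeal squamous carcinoma. One population stably carried GLUT4, the insulin-regulated glucose transporter, and the control population stably carried the vector, both after lentiviral transduction and puromycin selection and grown without a further treatment. Each population gave 1 array of the Affymetrix Human Genome U133 Plus 2.0 type, so replicates to test against were lacking, and a difference covers every way in which the populations differed. Differences below are log2 intensities in GLUT4 cells minus those in vector cells, taken on the probe set of a gene with the highest mean signal, called its main probe set.

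The targeted gene SLC2A4 read 32.6 in GLUT4 cells and 28.3 in vector cells, both below 39.3, the median signal of all probe sets. Whether its probe set detects the introduced sequence was not determined, so its value is no check of the labels. All 6 measured markers of squamous epithelium lay above the median signal, with a summed intensity of 37835 in GLUT4 cells and 36738 in vector cells, but single markers differed in opposite directions, from -0.83 (EPCAM) to 1.02 (KRT14). All 5 leukocyte and 3 muscle markers lay below the median signal, as did 1 of 2 endothelial markers. Of 4 fibroblast markers 3 lay above it, and their sum was 1361 in GLUT4 cells and 781 in vector cells, a difference carried almost wholly by DCN (1050 in GLUT4 cells and 482 in vector cells), while the other 3 were between 0.01 and 0.20. The part of these marker differences in the results was not tested. As a partial measure of technical error, the gap between probe sets for 1 gene gave an SD of 0.20 on the log2 scale for a single probe set over 10523 genes. It does not cover variation between cultures or error that the probe sets of an array share. Differences between transcripts of a gene may add to it.

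Molecular chaperones bind unfolded segments of other proteins and let them fold, cross membranes or be handed on for degradation. HSP70 proteins work in cycles of ATP binding and hydrolysis, in which J-domain proteins (DNAJ) deliver the substrate and start hydrolysis, and nucleotide exchange factors (the HSP110 and BAG proteins) release it. HSP90 acts later on kinases, receptors and other clients, HSP60 with HSP10 forms a folding chamber in mitochondria, and small HSPs hold unfolded proteins without ATP. Under protein stress the transcription factor HSF1 binds heat shock elements and induces some of the cytosolic members and the mitochondrial HSP60 and HSP10. Chaperones of the endoplasmic reticulum (ER) are induced through ER stress elements. Carcinoma cells commonly carry high levels of these chaperones.

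The promoters of 5 members are shown because they carry these elements and their genes gave different values, HSPA6 being past 1.5-fold and the others not. The sequences are the 250 bases before the RefSeq transcription start on GRCh38.p14, written 5' to 3' on the strand of the gene. In the first 3, capitals mark a heat shock element, here GAANNTTC or TTCNNGAA, which are each their own reverse complement and were also counted where they overlap. In the last 2, capitals mark an ER stress element, CCAAT and CCACG with 9 bases between them, on either strand.
HSPA6 promoter, chr1:161524290-161524539, plus strand: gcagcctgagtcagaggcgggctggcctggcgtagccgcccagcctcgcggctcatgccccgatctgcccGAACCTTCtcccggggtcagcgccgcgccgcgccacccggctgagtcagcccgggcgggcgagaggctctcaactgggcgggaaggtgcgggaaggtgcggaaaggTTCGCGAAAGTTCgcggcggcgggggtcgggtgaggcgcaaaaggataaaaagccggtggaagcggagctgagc
HSP90AA1 promoter, chr14:102087045-102087294, minus strand: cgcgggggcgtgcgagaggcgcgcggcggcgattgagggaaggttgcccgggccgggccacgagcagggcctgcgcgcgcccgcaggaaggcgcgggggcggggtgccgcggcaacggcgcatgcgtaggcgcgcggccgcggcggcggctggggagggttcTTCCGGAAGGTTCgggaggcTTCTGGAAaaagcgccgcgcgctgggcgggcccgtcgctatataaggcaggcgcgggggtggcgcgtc
HSPD1 promoter, chr2:197499841-197500090, minus strand: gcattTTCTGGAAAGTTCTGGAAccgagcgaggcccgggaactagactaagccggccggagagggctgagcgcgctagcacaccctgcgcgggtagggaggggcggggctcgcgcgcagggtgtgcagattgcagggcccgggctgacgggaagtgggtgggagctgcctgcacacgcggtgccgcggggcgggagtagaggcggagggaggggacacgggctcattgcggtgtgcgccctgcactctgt
HSPA5 promoter, chr9:125241344-125241593, minus strand: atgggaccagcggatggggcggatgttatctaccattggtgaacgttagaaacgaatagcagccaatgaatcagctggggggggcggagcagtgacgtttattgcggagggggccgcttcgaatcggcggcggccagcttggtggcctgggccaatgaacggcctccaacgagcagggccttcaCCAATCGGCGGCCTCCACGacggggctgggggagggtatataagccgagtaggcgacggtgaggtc
HSP90B1 promoter, chr12:103930160-103930409, plus strand: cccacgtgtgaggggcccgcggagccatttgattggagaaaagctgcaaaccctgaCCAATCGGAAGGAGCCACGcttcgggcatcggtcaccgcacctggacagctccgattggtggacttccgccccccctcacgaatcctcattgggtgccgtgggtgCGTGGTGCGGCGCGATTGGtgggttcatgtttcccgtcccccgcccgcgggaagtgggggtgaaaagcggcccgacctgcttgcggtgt

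Of the family genes, 67 matched a RefSeq promoter of 300 bases, which runs from 250 bases before the start to 50 after it. A heat shock element was in a promoter of 20 of them (29.9%), against 15% of all 15382 genes matched and 13.5% of all 35116 promoters. Of these 20 genes, 12 are on the list of HSF1-induced members described below. An element of 3 units, GAANNTTC followed by NNGAA or TTCNNGAA followed by NNTTC, was in 6 of the 67 (8.96%), against 0.579% of all genes matched and 0.49% of all promoters. These 6 were HSPA6, HSP90AA1, HSP90AB1, HSPD1, DNAJA1 and DNAJB6. In HSPA6 the element begins 74 bases before the start, and in HSP90AA1 88 bases before it. The ER stress element was in 2 of the 67 (2.99%), HSPA5 at 66 bases before the start and HSP90B1 at 194 and 89 bases before it, against 0.117% of all genes matched and 0.0769% of all promoters. A match describes the letters only and is not a site of binding.

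In mRNA level on the arrays, 75 of the 76 family genes were within 1.5-fold, as were 19108 of all 19775 genes, and HSPA6 was the exception. Of the 76 family genes, none was more than 1.5-fold higher in GLUT4 cells, where 1.84% of all 19775 genes were, and 1 was more than 1.5-fold lower, where 1.54% of all genes were. This gene was HSPA6. The other 75 lay between -0.45 (HSF5) and 0.50 (DNAJB12), and the median of the family was -0.02, as was the median of all genes. Of the 76, 40 were below 0, beside 52.2% of all genes. Past the SD of a single probe set, 11 were higher and 18 lower, beside 14.7% higher and 18% lower among all genes. Of the main probe sets, 67 lay above the median signal. Names ending in x_at or s_at, which mark probes that may detect several transcripts, belonged to 30 of the 76, and HSPA6 was not among them.

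By class, medians lay between -0.20 and 0.09. The HSP70 and HSP90 genes had medians of 0.00 (9 and 3 genes measured), HSP60 with HSP10 a median of 0.04 (2 genes) and the HSP110 genes a median of -0.16 (3 genes). Among the J proteins, the median was -0.16 for 4 DNAJA genes, -0.03 for 12 DNAJB genes and 0.05 for 27 DNAJC genes. The 7 small HSP genes had a median of -0.11, the 6 BAG genes a median of 0.09 and the 3 HSF genes a median of -0.20. Every pair of classes overlapped in range except the HSF genes against HSP60 with HSP10. By compartment, the median was -0.01 for the 41 genes of the cytosol and nucleus, -0.14 for the ER, 0.06 for mitochondria and -0.25 for vesicles and endosomes.

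**Figure D1:**
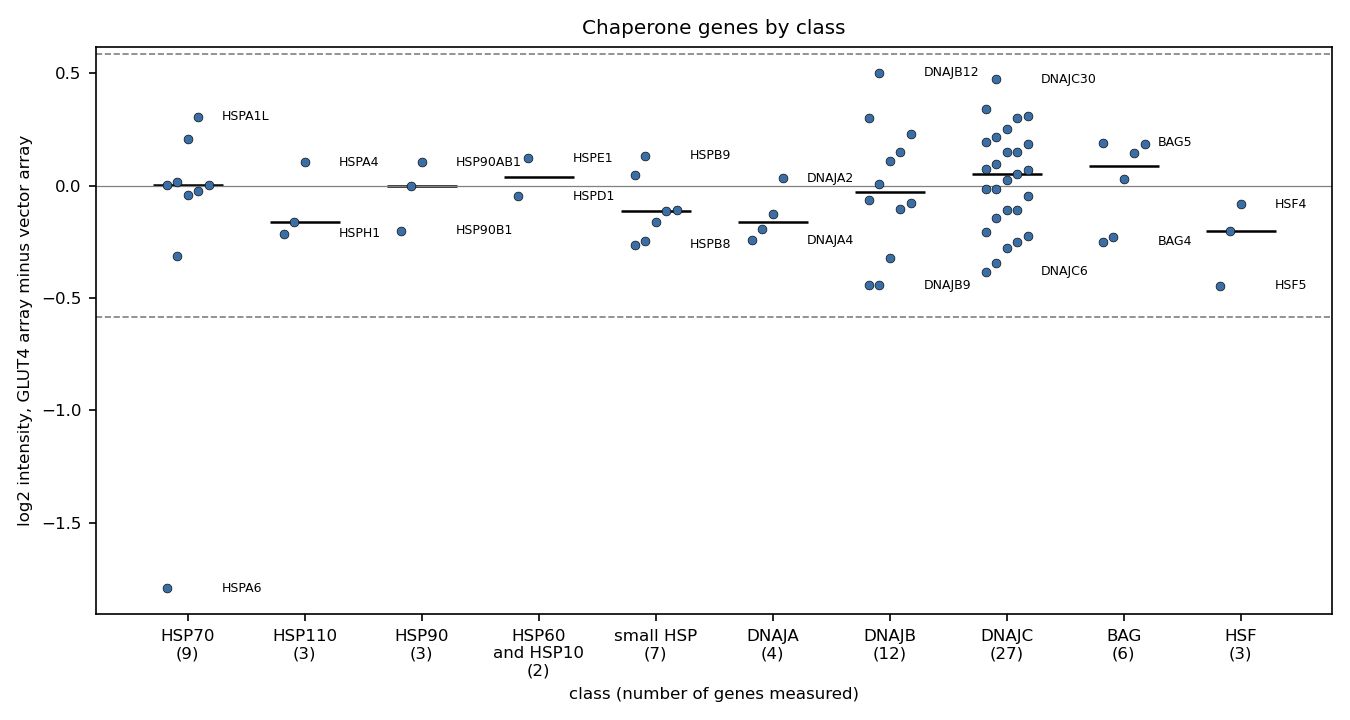
Each point is the main probe set of 1 family gene, with the log2 difference (GLUT4 minus vector) on the vertical axis and the chaperone class, with its number of genes measured, on the horizontal axis. Short lines are class medians and dashed lines mark 1.5-fold. Except for HSPA6 at -1.79, every point lies between the dashed lines.

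HSPA6 encodes HSP70B', a cytosolic HSP70 that is made almost only under stress. Its main probe set read 50.7 in GLUT4 cells and 176 in vector cells, which is 3.46-fold lower in GLUT4 cells, a log2 difference of -1.79. It stood at rank 4 of 19775 genes counted from the lowest difference, at rank 15 when the probe sets of each gene were averaged (-1.24), and at rank 7 with 32 added to all intensities. A further HSPA6 probe set read 40.5 in GLUT4 cells and 64.8 in vector cells, a difference of -0.68, so both were past 1.5-fold in the same direction. In GLUT4 cells both signals were near the median of all probe sets. Once 32 was added to all intensities, so that low signals weigh less, the main difference was -1.33. The further probe set was then at -0.42, which is within 1.5-fold. The transcribed pseudogene HSPA7 lies near HSPA6 on chromosome 1 and is very similar to it, and how far its transcripts are detected by these probe sets was not tested.

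The other HSF1-induced members that were measured did not share this difference. Their list was assigned by hand and also holds the testis gene HSPA1L and the constitutive HSP90 gene HSP90AB1, so it is not limited to stress-induced genes. Of 18 on the list, HSPA1A, HSPA1B and HSPA8 were left out because their probe sets name several genes. Among the 15 measured, 1 was more than 1.5-fold lower and none was higher, and 9 lay below 0, beside 52.2% of all genes. Without HSPA6 the remaining 14 lay between -0.24 and 0.31, with a median of -0.02. The sign of the median with HSPA6 depended on the processing. It was -0.05 on main probe sets, 0.03 over the genes left without x_at and s_at probe sets, and 0.05 with the probe sets of each gene averaged. DNAJB1, the main J protein of the stress response, read 754 in GLUT4 cells and 811 in vector cells (-0.11), and its further probe set read 336 in GLUT4 cells and 469 in vector cells (-0.48). HSPH1, a stress-induced HSP110, read 1897 in GLUT4 cells and 2199 in vector cells (-0.21), with further probe sets at -0.10 and 0.07. BAG3, which links HSP70 to autophagy, read 1715 in GLUT4 cells and 2010 in vector cells (-0.23). The main probe sets of these 3 genes were lower in GLUT4 cells by less than 1.5-fold. HSPH1 was above 0 once x_at and s_at probe sets were left out, and DNAJB1 and BAG3 have only s_at probe sets. Other members of the list were near or above 0, with HSP90AA1 at 0.00, HSPB1 at 0.05, HSP90AB1 at 0.10 and HSPE1 at 0.12. DNAJA1, which delivers clients to HSP70, was at -0.19 (5281 in GLUT4 cells and 6039 in vector cells), and the related DNAJA4 was at -0.24 (84.3 in GLUT4 cells and 99.8 in vector cells), though at 0.05 averaged over its 4 probe sets. On the higher side, HSPA1L, an HSP70 of the testis, was at 0.31 (84.4 in GLUT4 cells and 68.2 in vector cells) and at -0.05 on its further probe set. DNAJB6, which holds back protein aggregation, was at 0.30 (273 in GLUT4 cells and 222 in vector cells) and DNAJB4 at 0.23 (269 in GLUT4 cells and 229 in vector cells), with its further probe set at -0.04. Of the 6 genes with the heat shock element of 3 units, 5 were within 1.5-fold, among them HSP90AA1 and HSPD1, whose promoters are printed above. The 20 genes with any heat shock element had a median of -0.02 and the 47 without one a median of 0.00.

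**Figure D2:**
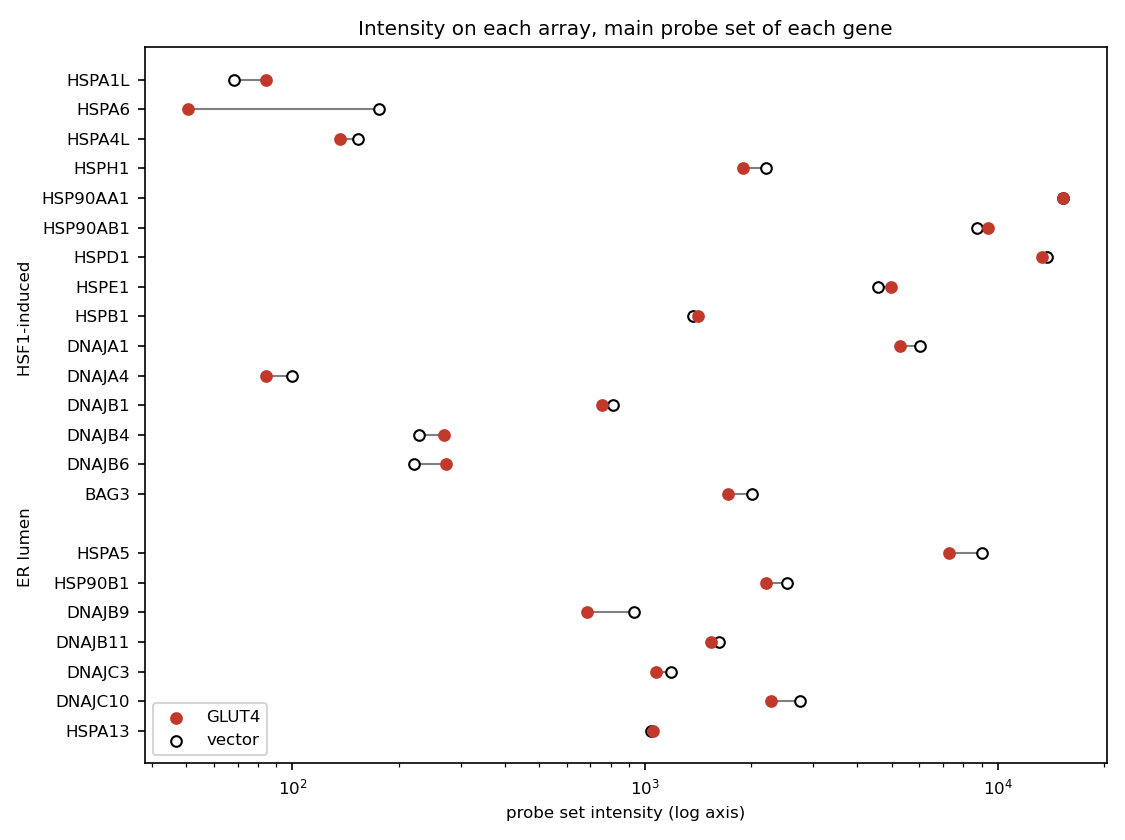
Probe set intensity (horizontal log axis) of 15 HSF1-induced members and of 7 chaperones of the ER lumen, main probe set of each gene, with filled points for the GLUT4 array and open points for the vector array. HSPA6 has the widest gap, at 50.7 in GLUT4 cells and 176 in vector cells, and 6 of the 7 lumenal genes have the filled point on the lower side, in a split of the 13 ER genes chosen after the values were seen (8 of 13 below 0, beside 52.2% of all genes).

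Among the 9 HSP70 genes measured, the 8 others ranged from -0.31 to 0.31, with a median of 0.00. HSPA9, the mitochondrial HSP70, read 4104 in GLUT4 cells and 4098 in vector cells (0.00), and its 3 further probe sets lay between -0.05 and 0.11. HSPA14, which works with the ribosome-bound J protein DNAJC2, was at 0.21 (1101 in GLUT4 cells and 953 in vector cells), with further probe sets at 0.32 and 0.00, and DNAJC2 was at 0.18 (1130 in GLUT4 cells and 995 in vector cells), with a dim further one at 0.01. HSPA2, an HSP70 of male germ cells, was at -0.02, HSPA12A at 0.00 and HSPA12B at -0.04. Of the HSP110 genes, which exchange nucleotide on HSP70, HSPA4 was at 0.10 (2595 in GLUT4 cells and 2414 in vector cells) and HSPA4L at -0.16. Their probe sets did not all run together. HSPA4 had another probe set at -0.43 (394 in GLUT4 cells and 529 in vector cells), and HSPA4L had one at -0.55 (117 in GLUT4 cells and 171 in vector cells).

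The cytosolic HSP90 genes lay close to 0 on all of their probe sets. HSP90AA1, the stress-induced form, read 15318 in GLUT4 cells and 15347 in vector cells, and all 4 of its probe sets lay between -0.09 and 0.00. HSP90AB1, the constitutive form, read 9393 in GLUT4 cells and 8741 in vector cells (0.10), and its 3 probe sets lay between 0.04 and 0.10. Of 15 HSP90 co-chaperones measured outside the family, which pass clients to HSP90 or regulate its ATPase, none was past 1.5-fold on its main probe set. The median was 0.04, and 10 lay above 0 and 5 below, beside 52.2% of all genes below. The lowest of them was CDC37L1, a relative of the kinase-specific co-chaperone CDC37, at -0.47 (472 in GLUT4 cells and 652 in vector cells) on its main probe set. Averaged over its probe sets, CDC37L1 was at -0.69, which is past 1.5-fold. CDC37 itself was at 0.14 (967 in GLUT4 cells and 877 in vector cells), and STIP1, which joins HSP70 to HSP90, was at -0.12.

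The ER members, which fold secreted and membrane proteins, were all within 1.5-fold. Of 13 measured, 8 lay below 0, beside 52.2% of all genes, and the median was -0.14, beside -0.02 for all genes. HSPA5, the ER HSP70 known as BiP, read 7255 in GLUT4 cells and 9006 in vector cells (-0.31), and its further probe set read 371 in GLUT4 cells and 527 in vector cells (-0.50). HSP90B1, the ER HSP90 known as GRP94, read 2203 in GLUT4 cells and 2531 in vector cells (-0.20), and its further probe set was at -0.08. These are the 2 genes with an ER stress element in the promoters printed above, an element chosen after values were seen. Each was lower on both of its probe sets that name 1 gene. Main and second probe set had the same sign in 61.3% of all genes with more than 1. Where both lay above the median signal, as for HSPA5 and HSP90B1, this share was 67.1%. Both of HSP90B1 are x_at probe sets, which may detect several transcripts, and 2 more that name it with other genes were not analysed. DNAJB9, a BiP co-chaperone, was the lowest ER member at -0.44 (685 in GLUT4 cells and 931 in vector cells), with its further probe sets at -0.34 and -0.24. DNAJC10, a reductase that opens disulfides of misfolded proteins, was at -0.28 (2270 in GLUT4 cells and 2748 in vector cells), and all 5 of its probe sets lay between -0.40 and -0.03. DNAJC3, which also inhibits the kinase PERK, was at -0.14 (1071 in GLUT4 cells and 1181 in vector cells), and its 4 probe sets lay between -0.30 and -0.11. DNAJB11, a soluble J protein of the ER, was at -0.08 (1540 in GLUT4 cells and 1625 in vector cells). HSPA13, an ER HSP70 without the usual substrate domain, was at 0.01. When the lumenal proteins were set apart from the membrane proteins, a split chosen after the values were seen, 6 of 7 lumenal members lay below 0 with a median of -0.20, and 2 of 6 membrane members did, with a median of 0.11.

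The ER membrane J proteins differed among themselves. DNAJB12 was the highest family gene at 0.50 (567 in GLUT4 cells and 401 in vector cells), while its 3 further probe sets lay between -0.26 and -0.11. DNAJB14, its close relative, was at -0.32 (543 in GLUT4 cells and 678 in vector cells), with further probe sets at -0.25 and -0.23. Both proteins present misfolded membrane proteins for degradation. DNAJC18 was at 0.25, DNAJC14, which aids receptor export, at 0.15, DNAJC1, which binds ribosomes, at 0.07 and DNAJC16 at -0.23. Of 12 further ER folding factors, none was past 1.5-fold and 7 lay below 0, beside 52.2% of all genes, with a median of -0.06. CALR, the lectin chaperone calreticulin, was the lowest at -0.33 (534 in GLUT4 cells and 672 in vector cells), and its membrane-bound relative CANX was at 0.04. MANF, a secreted BiP partner, was at -0.23, the disulfide isomerases PDIA4 and PDIA6 were at -0.23 and -0.22, and SDF2L1, a partner of DNAJB11, was at 0.16.

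**Figure D3:**
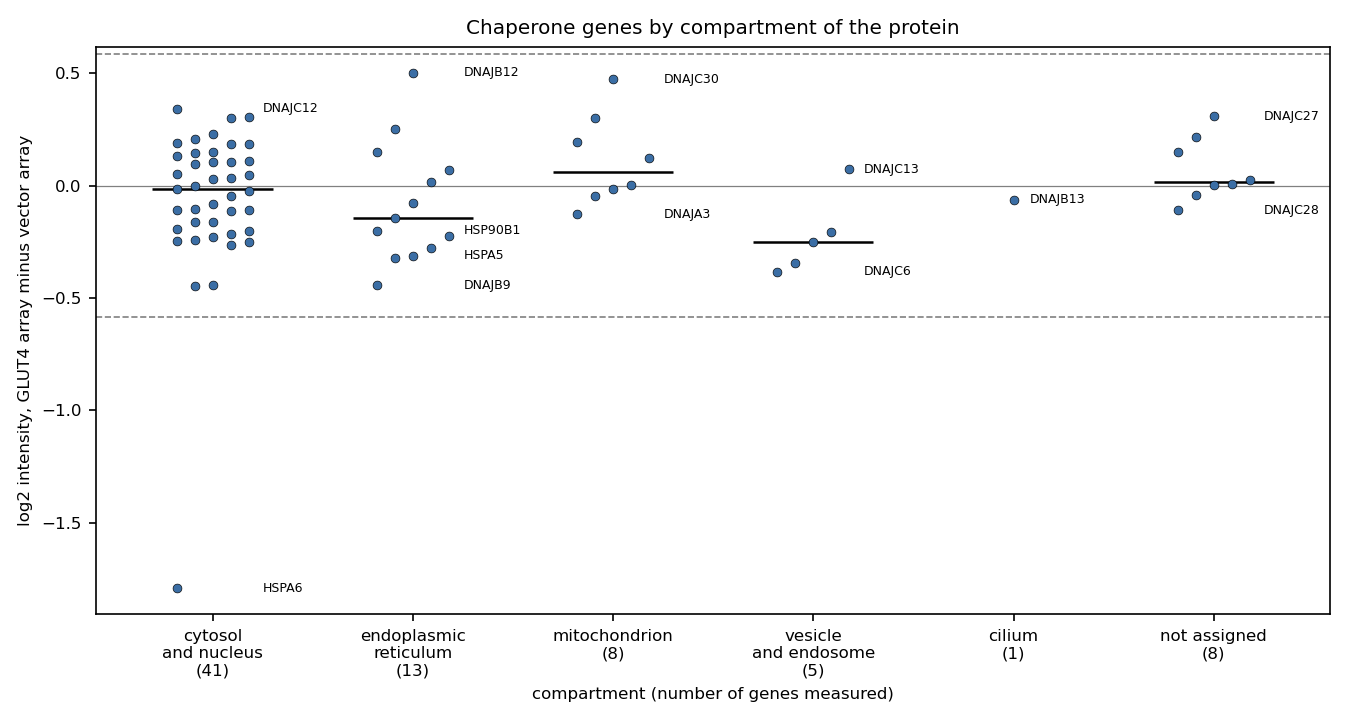
Each point is the main probe set of 1 family gene, grouped by the compartment of its protein on the horizontal axis (number of genes measured in brackets), with the log2 difference (GLUT4 minus vector) on the vertical axis. Short lines are medians and dashed lines mark 1.5-fold. The ER median is -0.14 and the mitochondrial median 0.06, and the ranges overlap.

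The mitochondrial members had a median of 0.06, with 5 of 8 above 0 and 3 below, beside 52.2% of all genes below. None was past 1.5-fold. HSPD1, the HSP60 subunit, read 13328 in GLUT4 cells and 13762 in vector cells (-0.05), and HSPE1, its HSP10 lid, read 4974 in GLUT4 cells and 4573 in vector cells (0.12). DNAJC19, a J protein of the import motor, was at 0.30 (1272 in GLUT4 cells and 1031 in vector cells) and at 0.25 on its further probe set. DNAJC15, its relative, was at 0.19 (4957 in GLUT4 cells and 4335 in vector cells), with further probe sets at 0.00 and -0.24. DNAJC30, a J protein of the inner membrane, was the highest at 0.47 (509 in GLUT4 cells and 366 in vector cells), and its other probe sets were at 0.25 and 0.20. DNAJC19 and DNAJC30 were thus higher on every probe set. DNAJA3, which serves mitochondrial HSP70, was at -0.13 (1005 in GLUT4 cells and 1097 in vector cells) and -0.10. DNAJC11, of the outer membrane, was at -0.02, and at 0.24 on its further probe set. Without probe sets that may detect several transcripts, the mitochondrial median was 0.27 over the 6 genes left, since HSPE1 and DNAJA3 have no other probe set. HSPD1 then stood at 0.30 on a much dimmer probe set (140 in GLUT4 cells and 114 in vector cells). Of 10 mitochondrial chaperones and proteases outside the family, none was past 1.5-fold, 5 lay above 0, and the median was 0.01. HTRA2, a protease of the intermembrane space, was the highest at 0.40 (586 in GLUT4 cells and 444 in vector cells). The nucleotide exchange factors of mitochondrial HSP70 went opposite ways, GRPEL1 at 0.16 and GRPEL2 at -0.36 (0.00 averaged over its probe sets).

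J proteins form the largest class, and the 43 measured had a median of 0.01, with 22 above 0 and 21 below. The 16 of the cytosol and nucleus ranged from -0.44 to 0.34, with a median of 0.04. DNAJB2, which delivers clients to the proteasome, was the lowest of them (156 in GLUT4 cells and 212 in vector cells) and has 1 probe set. DNAJC12, a co-chaperone of phenylalanine hydroxylase, was the highest (202 in GLUT4 cells and 159 in vector cells), with further probe sets at 0.24 and -0.08. DNAJC8, a splicing-associated protein, was at -0.11, DNAJC9, a histone chaperone, at 0.10 (-0.09 on a further probe set), DNAJC17 at 0.15 and DNAJC21, which acts in ribosome maturation, at -0.01 with 7 probe sets between -0.31 and 0.14. DNAJA2 was at 0.03, DNAJC7 at 0.05, DNAJB5 at 0.11 and DNAJC24, of diphthamide synthesis, at -0.05.

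The 5 J proteins of vesicles and endosomes had a median of -0.25, and 4 of them lay below 0, beside 52.2% of all genes. DNAJC6, the auxilin that uncoats clathrin vesicles, read 282 in GLUT4 cells and 367 in vector cells (-0.38), and its dim further probe set was at -0.34. DNAJC5, the cysteine string protein of secretory vesicles, read 427 in GLUT4 cells and 541 in vector cells (-0.34), with its further probe sets at -0.24 and -0.10. Both were thus lower on every probe set, though the further one of DNAJC6 read only 6.48 in GLUT4 cells and 8.18 in vector cells. Main and second probe set had the same sign in 61.3% of all genes with more than 1. Where both lay above the median signal, as for DNAJC5, this share was 67.1%. DNAJC5G was at -0.25 (54.3 in GLUT4 cells and 64.5 in vector cells), and DNAJC5B, dim on both arrays, at -0.20 (25.6 in GLUT4 cells and 29.5 in vector cells). DNAJC13, an endosomal protein, was at 0.07 (620 in GLUT4 cells and 589 in vector cells). The ciliary DNAJB13 was at -0.06, and the 8 family genes with no compartment assigned ranged from -0.11 (DNAJC28) to 0.31 (DNAJC27).

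Of the 7 small HSP genes, 3 lay above the median signal. HSPB1, known as HSP27, which binds unfolding proteins and actin, read 1413 in GLUT4 cells and 1364 in vector cells (0.05). HSPB8, the partner of BAG3, read 47.1 in GLUT4 cells and 56.5 in vector cells (-0.26), and HSPB2 read 39.5 in GLUT4 cells and 42.7 in vector cells (-0.11). The other 4, which are mainly muscle or testis genes, read at most 28.6 on either array and lay between -0.24 (HSPB7) and 0.13 (HSPB9). In the third of genes with the lowest signal the SD of a single probe set was 0.21, about the size of these differences. The lens and muscle small HSP CRYAB, outside the symbol rule, read 38.8 in GLUT4 cells and 45.0 in vector cells (-0.22).

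The 6 BAG genes ranged from -0.25 to 0.19. BAG5, a nucleotide exchange factor with several BAG domains, was at 0.19 (1583 in GLUT4 cells and 1386 in vector cells), with further probe sets at 0.34 and 0.23. BAG1, which couples HSP70 to the proteasome, was at 0.15 (639 in GLUT4 cells and 577 in vector cells), with further probe sets at 0.23 and 0.17. Both were higher on all 3 probe sets. BAG6, which guides tail-anchored proteins to the ER, was at 0.19 (969 in GLUT4 cells and 851 in vector cells), with further probe sets at 0.14, 0.33 and -0.07. BAG2, an inhibitor of the ubiquitin ligase STUB1, was at 0.03 (831 in GLUT4 cells and 813 in vector cells), with dimmer probe sets at -0.51 and 0.16. BAG4, which silences TNF receptors, had probe sets that disagreed. Its main probe set read 1153 in GLUT4 cells and 1371 in vector cells (-0.25), and the dimmer ones read 96.8 in GLUT4 cells and 67.2 in vector cells (0.53) and 67.6 in GLUT4 cells and 41.2 in vector cells (0.71).

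The transcription factors of the heat shock response were within 1.5-fold. HSF1, the main activator, read 181 in GLUT4 cells and 208 in vector cells (-0.20) on its main probe set and 44.5 in GLUT4 cells and 42.5 in vector cells (0.06) on the other. HSF4, a factor of the lens, was at -0.08 (69.1 in GLUT4 cells and 73.1 in vector cells). HSF5, a factor of male germ cells, was dim, at 13.3 in GLUT4 cells and 18.2 in vector cells (-0.45). HSF1 is regulated mainly at the protein level, which the arrays do not measure. Of 13 HSF1-induced genes outside the family, none was past 1.5-fold and 10 lay below 0, beside 52.2% of all genes, with a median of -0.12. CHORDC1, an HSP90 co-chaperone, was the lowest at -0.35 (1389 in GLUT4 cells and 1775 in vector cells) and at -0.17 averaged over its probe sets. ATF3, a stress factor, was at -0.31 (5116 in GLUT4 cells and 6362 in vector cells). The 3 above 0 were PTGES3, MRPL18 and FKBP4, none over 0.07.

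Chaperones that act before or beside HSP70 on new proteins showed little difference. Of the 8 subunits of the chaperonin CCT that were measured, which folds actin and tubulin, 4 lay above 0 and the median was -0.01. The 7 subunits other than CCT6B, a testis form at 0.48 (153 in GLUT4 cells and 109 in vector cells), lay between -0.08 (CCT5) and 0.17 (CCT6A). The 5 prefoldin subunits measured, which bring clients to CCT, ranged from -0.11 to 0.20. Of 10 HSP70 co-chaperones outside the symbol rule, none was past 1.5-fold and the median was -0.01.

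Agreement between probe sets set how far a single value could be read. Of the 76 family genes, 59 had more than 1 probe set, and the main and the second probe set had the same sign in 39 (66.1%), beside 61.3% of all 10523 such genes. Where both lay above the median signal, this was 31 of 44 (70.5%), beside 67.1% of all genes. Across the 59 genes the differences of the pair had a Pearson r of 0.54, and of 0.44 without HSPA6. This is a description across genes, and the paired values share their arrays. Of the 186 probe sets, 1 was more than 1.5-fold higher and 3 were more than 1.5-fold lower, beside 1.96% and 1.38% of the 41097 probe sets that name 1 gene. The higher one belongs to BAG4, and the lower ones are both of HSPA6 and a dim one of DNAJC18 at -0.61 (28.1 in GLUT4 cells and 42.9 in vector cells), whose other probe sets were at 0.25 and 0.05.

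**Figure D4:**
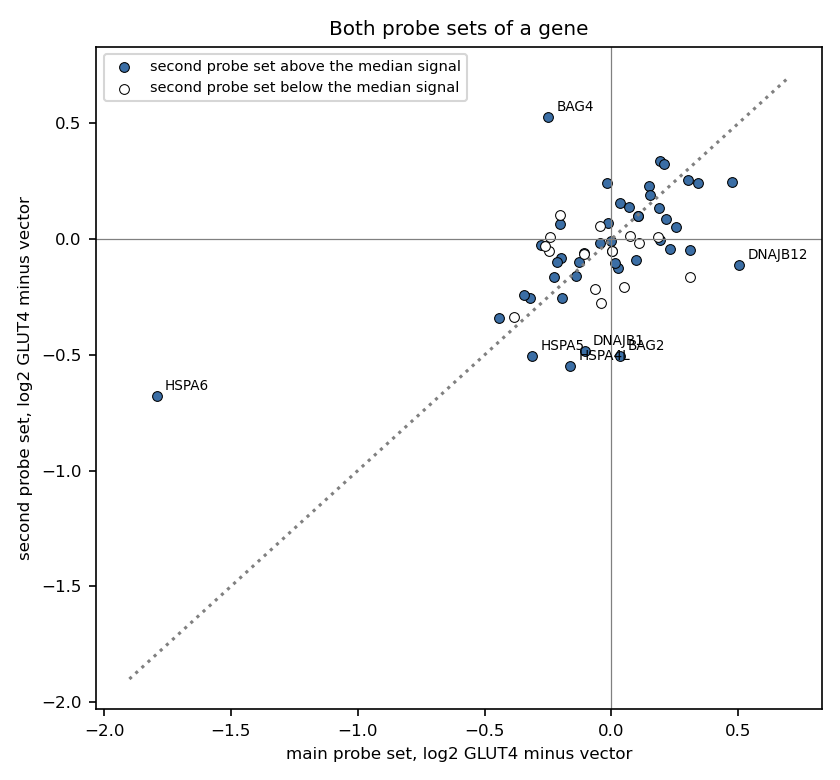
Each point is 1 of the 59 family genes with more than 1 probe set, with the log2 difference (GLUT4 minus vector) of its main probe set on the horizontal axis and of its second on the vertical axis. Filled points have a second probe set above the median signal, and the dotted line marks equal values. HSPA6 lies low on both axes at -1.79 and -0.68, and BAG4 lies on opposite sides of 0.

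The 6 symbols that match by name only were within 1.5-fold. HSF2BP, which despite its name acts in meiotic recombination, read 535 in GLUT4 cells and 358 in vector cells (0.580), just short of 1.5-fold, which is 0.585 on this scale. DNAJC3-DT, a transcript that starts opposite DNAJC3, read 249 in GLUT4 cells and 217 in vector cells (0.20), while DNAJC3 itself was at -0.14. The 4 antisense transcripts, of DNAJB8, DNAJC9, DNAJC27 and HSPA2, read at most 20.5 on either array.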

How the data were processed

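Total RNA of both cell populations was hybridised to 1 array each. The authors labelled it from the 3' end and used GeneSpring for normalization on the log2 scale, while MAS5, with no version, stands in the submitters' processing notes. The deposited values are linear intensities whose highest value was equal on both arrays, with a median of 39.1 in GLUT4 cells and 39.7 in vector cells. How both were joined was not given in the sources used here. Values under 1 were raised to 1 before log2. Genes were named from the platform annotation, where 1801 probe sets name several genes and 11777 are unnamed here. All 82 symbols matched their current RefSeq symbol. The threshold of 1.5-fold is that of the methods. With 1 array per group no test was made, and the number of arrays limits the precision. Classes, compartments and lists were assigned by hand, and members and lists were chosen with earlier results of these data known. Of 84 genes with a class, 8 were not analysed here. Genes named are those past 1.5-fold on a main probe set or on a further one above the median signal of all probe sets. Also named are the 2 of highest signal in each class, the main stress-response genes and list members past 1.5-fold. Others, named to account for the members, and the ER stress element, the element of 3 units and the split of the ER, were chosen after values were seen. Alternatives were averaging the probe sets of a gene, leaving out x_at and s_at probe sets, a median signal filter, quantile normalization, equal medians, loess (fraction 0.3) and adding 32 to all intensities. The procedure was tested on simulated differences well past 1.5-fold with independent noise on each probe set, and the scalings on a known shift. Neither covers smaller differences or variation between cultures. Statsmodels 0.14.6, scipy 1.17.1, pandas 2.3.3, numpy 2.4.6 and matplotlib 3.10.9 were used in Python 3.11.15.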

Additional observations from a re-analysis of the deposited data

How the results depend on the processing

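Under all 7 alternatives the family had 0 genes past 1.5-fold higher and 1 past 1.5-fold lower, and its median stayed between -0.04 and 0.01. The difference of HSPA6 lay between -1.81 and -1.24, with the smallest size when its probe sets were averaged. Class and compartment medians moved in a few cases by more than a margin that shrinks with the number of genes. It is the SD of a single probe set scaled as the error of a median, 0.13 for the DNAJA and 0.05 for the DNAJC genes. This margin takes genes as independent, and the cause of the moves was not tested. With the probe sets of each gene averaged, the median was -0.030 for the DNAJA genes and -0.017 for the DNAJC genes. Without x_at and s_at probe sets it was -0.019 over the 4 BAG genes left, 0.27 over the 6 mitochondrial members left, and 0.30 for HSP60 and HSP10, where HSPD1 alone was left. Among all genes, the offset of 32 left 205 more than 1.5-fold higher and 168 lower in place of 363 and 304, and averaging left 186 lower. Averaging gave BAG4 a difference of 0.33, and without x_at and s_at probe sets HSPA4 was at -0.43, HSPD1 at 0.30 and HSPH1 at 0.07. No paired analysis was possible because each group has 1 array. Signal near the median of all probe sets or below it limits the small HSP genes other than HSPB1 and both HSPA6 values in GLUT4 cells.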
